A study of Homo sapiens with 6 samples.

Results

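Interferon response genes are the genes that cells switch on when interferons signal through their receptors. The set described here holds 53 genes for RNA sensors, antiviral effectors, transcription factors, immunoproteasome subunits and chemokines, given as a list of gene symbols. DDX58 and RIGI, both on that list, are 1 gene. Every probe set annotated to 1 of these genes alone was taken, which gave 99 probe sets for 52 genes, among 54613 probe sets and 19775 genes in all; the remaining gene was not analysed here, and 2 probe sets shared with another gene were left out. The members were measured in IGROV1, an established human ovarian carcinoma cell line, sorted after staining with the DNA dye Hoechst 33342 into side population (SP) cells, which keep little of the dye, and non-SP cells, with 3 arrays each. Both groups are the same line, grown in RPMI 1640 with fetal bovine serum, stained and sorted, with no other treatment, no transgene and no added interferon named in the labels. The sort defines the groups, so the gate and the dye a cell retains cannot be told apart. In bulk samples fewer cells expressing a gene cannot be told apart from less RNA per cell. The samples are called biological replicates, but the labels do not tie them to separate cultures, so that the p-values rest on a spread between arrays that may be technical.

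Type I and type III interferons bind receptors whose kinases, JAK1 and TYK2, activate STAT proteins that join IRF9 and bind the interferon-stimulated response element (ISRE) in front of target genes. Interferon gamma acts through JAK1 and JAK2 and a different DNA element, the gamma-activated site. In epithelial tumour lines many of these genes are also known to be transcribed at a low, steady level without infection, and double-stranded RNA, cytosolic DNA and stress can raise them.

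Values are RMA expression values per probe set on a log2 scale. The mean of 3 negative control probe sets lay between 2.82 and 2.96 on the 6 arrays, and a probe set at or below it on an array is called not above background there. The median over all probe sets lay between 5.59 and 5.64 per array. All 10 epithelial and ovarian markers measured were above background on all 6 arrays, with PAX8 at 10.33 ± 0.25 in SP and 10.42 ± 0.23 in non-SP cells (SD, n = 3 each), while the pan-leukocyte gene PTPRC was above background on 1 of 3 SP and 0 of 3 non-SP arrays and CD3E on 0 of 3 in both. Of 4 leukocyte markers measured, CD14 and LYZ were above background on all 6 arrays, and the mean value of the 4 lay between 3.58 and 3.87 on SP arrays and between 3.51 and 3.74 on non-SP arrays. The erythroid gene HBB was above background on all 6 arrays too. Of the 10 epithelial and ovarian markers 1 was higher in SP cells without overlap, KRT7, with a difference of 0.79 (SE 0.18). Another 3 were lower without overlap, KRT8 (-0.71, SE 0.22), EPCAM (-0.15, SE 0.11) and MSLN (-0.37, SE 0.16). Over all genes 4.78% were higher and 7.1% lower without overlap. No marker passed the adjusted threshold. The part of these markers in the results was not tested. The arrays do not part by sort gate alone: on the first principal component of the 19723 genes that are no member, which held 45.8% of the variance, SP replicate 1 and non-SP replicates 1 and 3 lay on one side and SP replicates 2 and 3 and non-SP replicate 2 on the other. The difference between the 3′ and 5′ control probe sets of ACTB, a measure of RNA integrity and amplification, was 2.08 on SP replicate 1 and 2.02 and 2.29 on non-SP replicates 1 and 3. It was 2.48 and 2.46 on SP replicates 2 and 3 and 2.55 on non-SP replicate 2. The labels name no batch that matches this parting, and its part in the results was not tested beyond the values given with it as a block.

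The upstream sequences below are shown because the rest of the account turns on these 5 genes: SAMD9, SAMD9L and OAS1 are those with probe sets described one by one, and IFIT1 and BST2 vary widely within both groups. They are the 250 bases before the annotated start, from RefSeq (GRCh38.p14), 5′ to 3′ in the direction of the gene. Capitals mark the ISRE core, which is GAAA and again GAAA with any 2 bases between them, or TTTC and TTTC so spaced on the other strand, and the gamma-activated site, TTCNNNGAA, which reads the same on both strands; in BST2 these 2 kinds of match overlap. The places are chr7:93117980-93118229 on the minus strand for SAMD9, chr7:93148386-93148635 on the minus strand for SAMD9L, chr12:112906712-112906961 on the plus strand for OAS1, chr10:89392373-89392622 on the plus strand for IFIT1 and chr19:17405631-17405880 on the minus strand for BST2.
SAMD9: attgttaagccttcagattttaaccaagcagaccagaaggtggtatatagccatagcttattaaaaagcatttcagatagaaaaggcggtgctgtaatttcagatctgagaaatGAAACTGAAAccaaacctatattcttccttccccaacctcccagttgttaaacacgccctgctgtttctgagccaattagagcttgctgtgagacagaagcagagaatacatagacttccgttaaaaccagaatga
SAMD9L: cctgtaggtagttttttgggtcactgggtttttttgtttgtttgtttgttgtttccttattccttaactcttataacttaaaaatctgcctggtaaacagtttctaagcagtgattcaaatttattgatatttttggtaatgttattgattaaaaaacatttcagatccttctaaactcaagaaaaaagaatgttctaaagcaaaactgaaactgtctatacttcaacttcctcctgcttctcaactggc
OAS1: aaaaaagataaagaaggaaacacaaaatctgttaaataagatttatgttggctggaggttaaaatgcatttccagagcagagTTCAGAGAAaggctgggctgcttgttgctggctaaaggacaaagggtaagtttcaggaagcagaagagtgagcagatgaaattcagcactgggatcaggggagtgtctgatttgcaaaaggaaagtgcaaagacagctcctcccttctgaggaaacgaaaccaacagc
IFIT1: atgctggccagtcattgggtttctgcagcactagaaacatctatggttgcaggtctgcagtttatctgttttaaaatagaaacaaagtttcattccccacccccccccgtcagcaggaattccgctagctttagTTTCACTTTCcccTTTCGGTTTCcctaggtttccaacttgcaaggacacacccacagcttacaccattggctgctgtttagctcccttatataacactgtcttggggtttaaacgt
BST2: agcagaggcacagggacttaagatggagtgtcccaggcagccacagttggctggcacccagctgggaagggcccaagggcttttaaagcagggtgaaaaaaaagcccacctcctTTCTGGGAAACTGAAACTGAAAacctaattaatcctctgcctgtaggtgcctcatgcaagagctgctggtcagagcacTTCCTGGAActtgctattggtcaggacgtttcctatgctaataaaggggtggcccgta

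The ISRE letters stood in the upstream sequence of 23 of the 44 members that the table holds (52.3%), against 839 of 27305 promoters of all genes (3.07%). The gamma-activated letters stood in 11 of the 44 (25.0%), against 6.78% of all promoters. SAMD9 has 1 ISRE match, which begins 136 bases before the start, IFIT1 has 2, at 116 and 103 bases, and BST2 has 2 overlapping ones, at 130 and 124 bases. OAS1 holds 1 gamma-activated match and no ISRE match in these letters, and SAMD9L holds neither in this window. Near its end the OAS1 sequence holds GAAA and GAAA with 1 base between them, which the ISRE letters, with 2, do not count. A match describes the letters and is no evidence of binding, and the lack of a match does not show that an element is missing.

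No interferon response gene passed the test between SP and non-SP cells, and the 5 whose groups did not overlap, SAMD9, SAMD9L, OAS1, TRIM21 and PSMB8, differed by 0.52 to 1.04 in size on the log2 scale. In limma's fit over all 19775 genes, 0 of 52 members passed a Benjamini-Hochberg adjusted p of 0.05, where 0.00506% of all genes did, and the smallest adjusted p among members was 0.474. At an unadjusted p under 0.05 there were 7 members (13.5%), against 6.78% of all genes. Of these 5 were higher in SP cells, as were 3.07% of all genes, and 2 were lower, as were 3.71%. With the sides of the first principal component as a block 0 members passed, where 0.0253% of all genes did. The lowest SP value exceeded the highest non-SP value for 4 members (7.69%), as for 4.78% of all genes, and the reverse held for 1 member (1.92%), as for 7.1% of all genes. Both directions together gave 5 of 52 members (9.62%), against 11.9% of all genes. Which of these shares was the higher turned with the setting: with each array centred on its median it was 13.5% of members, against 11.8% of all genes. The median difference, SP minus non-SP, was 0.04 over members and -0.02 over all genes, and 31 members had a difference above 0 and 21 below. Of the 52 members, 47 were above background on all 6 arrays and 3 on none.

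**Figure D1:**
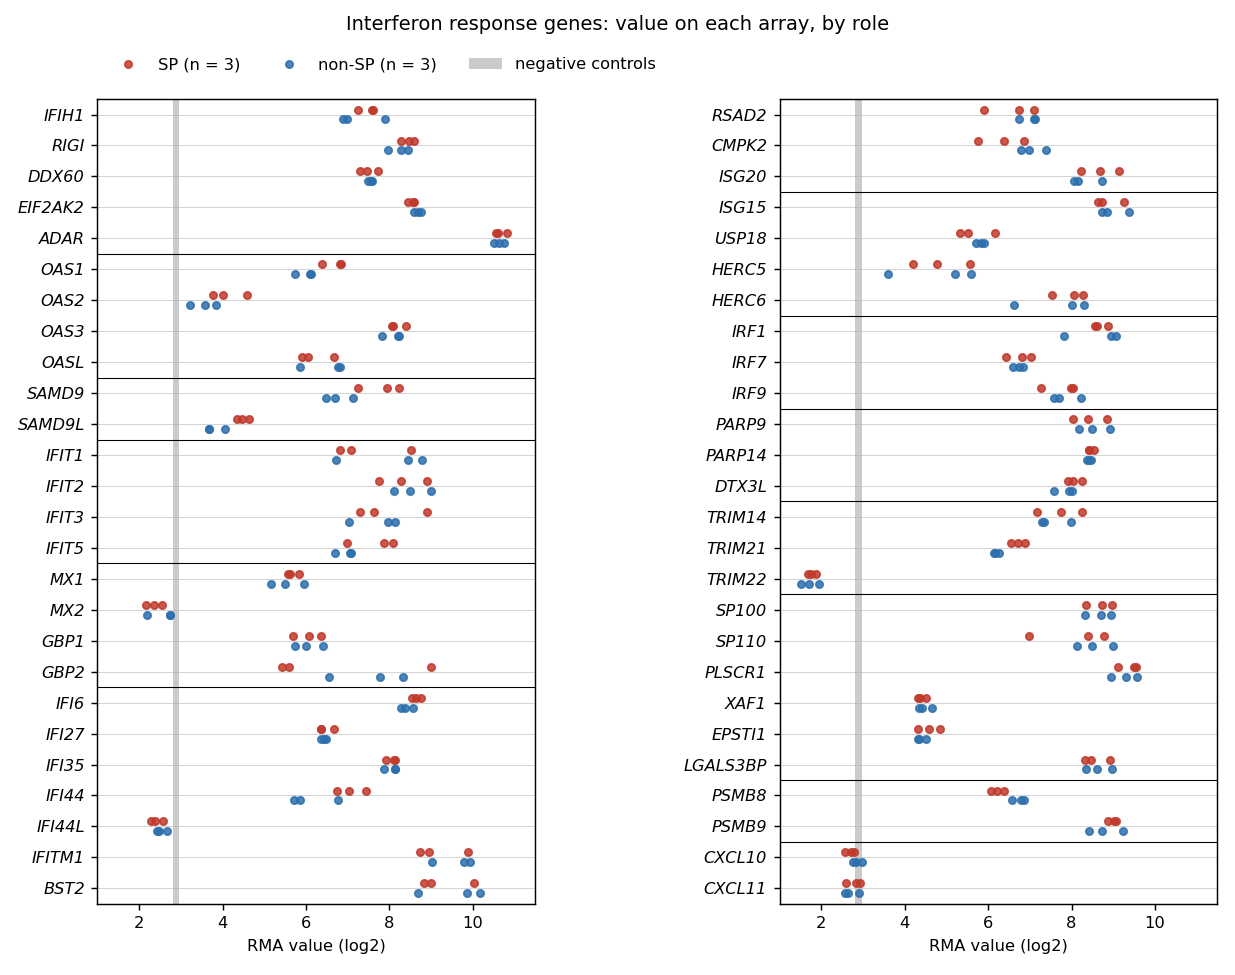
RMA value (log2, x axis) of each of the 52 interferon response genes on each array, at the probe set with the highest mean, in order of role with lines between roles; red points are the 3 SP arrays, blue points the 3 non-SP arrays, and the grey band spans the negative control means of 2.82 to 2.96. The SP points lie wholly to the right for OAS1, SAMD9, SAMD9L and TRIM21 and wholly to the left for PSMB8, and the points of IFIT1, GBP2 and BST2 spread widely within both groups.

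**Figure D2:**
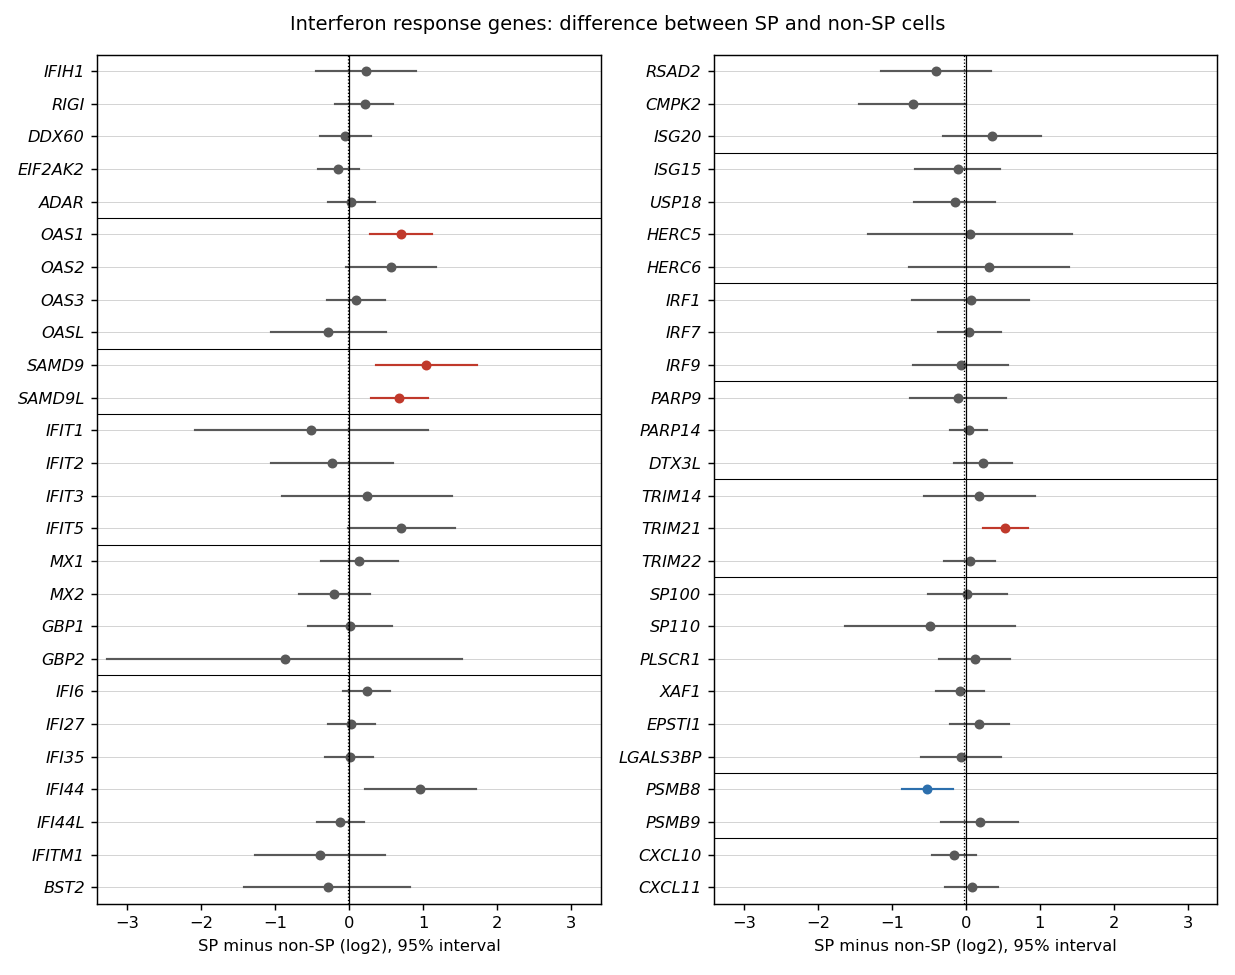
Difference between SP and non-SP cells (log2, x axis) for the same 52 genes, with limma's 95% interval as a line; red and blue mark genes whose groups do not overlap, higher and lower in SP cells, and the dotted line is the median difference of all genes, -0.02. The largest positive difference is that of SAMD9 (1.04), and the widest interval is that of GBP2 (-3.27 to 1.53).

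SAMD9 and SAMD9L, neighbouring paralogues on chromosome 7 that restrain poxvirus replication and cell growth, were both higher in SP cells at the probe set with the highest mean. SAMD9 at probe set 228531_at read 8.23, 7.26 and 7.95 in SP replicates 1, 2 and 3, against 6.69, 6.49 and 7.13 in non-SP replicates 1, 2 and 3. The lowest SP value lay just above the highest non-SP value. The means were 7.81 ± 0.50 in SP and 6.77 ± 0.32 in non-SP cells (SD, n = 3 each), a difference of 1.04 (SE 0.29), or 2.06-fold with a 95% interval of 1.28 to 3.31, and a limma adjusted p of 0.554. With the 2 sides of the first principal component as a block it was 1.22 (SE 0.23, limma adjusted p = 0.168), and within each side it was 1.32 and 1.11. The other SAMD9 probe set, 219691_at, read 4.42, 4.28 and 4.14 in SP and 4.52, 4.18 and 4.42 in non-SP cells, and its groups overlapped with a difference of -0.10 (SE 0.15). With the mean of both probe sets SAMD9 differed by 0.47.

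SAMD9L was dim throughout. Its brightest probe set, 235643_at, read 4.35, 4.47 and 4.63 in SP cells and 4.07, 3.67 and 3.67 in non-SP cells, so that the groups were separate. The difference was 0.68 (SE 0.16), or 1.60-fold with an interval of 1.23 to 2.08, and the limma adjusted p of 0.474 was the smallest of any member. Probe set 230036_at lay barely above background on all 6 arrays, at 2.94, 2.95 and 2.99 in SP and 3.01, 3.38 and 2.94 in non-SP cells. Probe set 226603_at was above background on 2 of 3 SP arrays (2.93 and 3.69, the other reading 2.64) and on 0 of 3 non-SP arrays (2.50, 2.65 and 2.46). With the mean of all 3 probe sets SAMD9L differed by 0.36.

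OAS1 makes 2′-5′ oligoadenylates on double-stranded RNA, which activate an RNA-degrading nuclease. Its probe set 205552_s_at read 6.81, 6.39 and 6.84 in SP cells, against 6.09, 6.11 and 5.74 in non-SP cells, with no overlap. The difference was 0.70 (SE 0.18), or 1.63-fold with an interval of 1.21 to 2.18 (limma adjusted p = 0.514), and it was 0.90 and 0.50 within the sides of the first principal component. Probe set 202869_at did not follow: it read 4.42, 4.12 and 4.13 in SP and 4.68, 4.27 and 3.81 in non-SP cells and differed by -0.03 (SE 0.24). With the mean of both, OAS1 differed by 0.33. In all 3 genes the separate groups were those of the brightest probe set, and each gene had another probe set above background on all 6 arrays with a difference of the opposite sign, of -0.10, -0.15 and -0.03 in SAMD9, SAMD9L and OAS1.

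**Figure D3:**
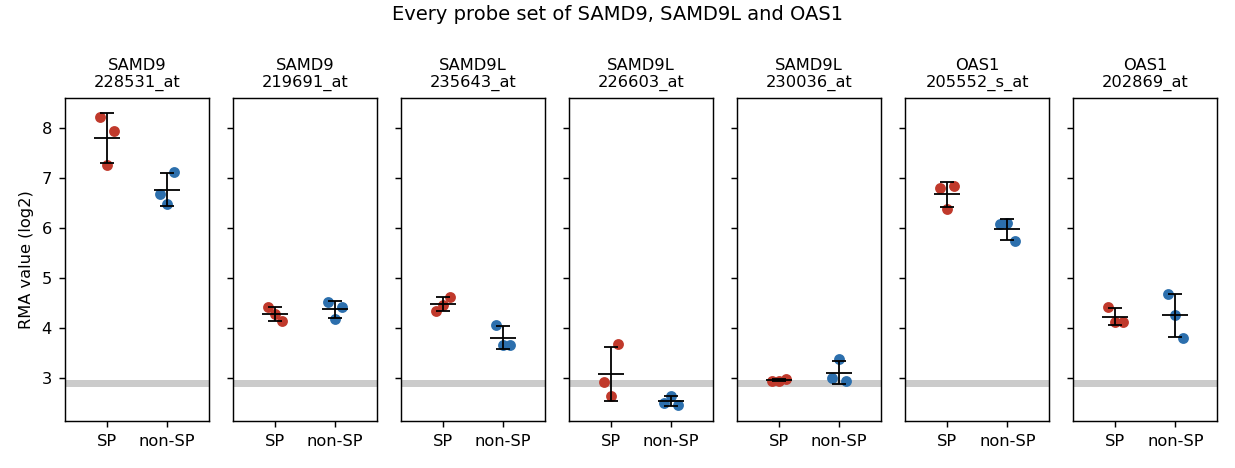
RMA value (log2, y axis) of every probe set of SAMD9, SAMD9L and OAS1; points are single arrays, red for SP and blue for non-SP cells, black bars give the mean ± SD of 3 arrays, and the grey band is the range of the negative control means. The groups are separate for 1 probe set of each gene, 228531_at, 235643_at and 205552_s_at, and overlap or lie near background for the others.

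The other OAS genes had overlapping groups. OAS2, a second oligoadenylate synthetase, was close to background, with 4.01, 4.59 and 3.78 in SP and 3.85, 3.22 and 3.59 in non-SP cells and a difference of 0.57 (SE 0.26) at the brightest of its 3 probe sets, while the other pair differed by -0.10 and -0.14. OAS3 read 8.40, 8.06 and 8.10 in SP and 8.21, 8.23 and 7.83 in non-SP cells. OASL, a relative without synthetase activity, read 6.68, 6.05 and 5.90 in SP and 6.81, 5.87 and 6.78 in non-SP cells and differed by -0.28 (SE 0.32). Of the 4 genes, 1 had separate groups, where 11.9% of all genes did, and 0 passed the test, where 0.00506% of all genes did.

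Among the cytosolic RNA sensors and RNA-binding enzymes, 0 of 5 had separate groups, where 11.9% of all genes did. IFIH1 (MDA5), which senses long double-stranded RNA, differed by 0.23 (SE 0.29) and RIGI, which senses RNA with a 5′ triphosphate, by 0.21 (SE 0.17). The helicase gene DDX60 differed by -0.05 (SE 0.14), EIF2AK2, the kinase PKR that halts translation, by -0.15 (SE 0.11), and ADAR, which edits adenosine in double-stranded RNA, by 0.03 (SE 0.13). ADAR was bright and even, at 10.82, 10.56 and 10.61 in SP and 10.62, 10.76 and 10.51 in non-SP cells. For EIF2AK2 all 3 probe sets differed in the same direction, by -0.15, -0.35 and -0.29. The 3 IFIH1 probe sets differed by 0.23, 0.24 and 0.61 and the 3 RIGI probe sets by 0.21, 0.18 and 0.31, none past the test.

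The IFIT genes, some of whose products bind viral RNA that lacks a host cap, sit in 1 cluster on chromosome 10. IFIT1 read 8.53, 6.81 and 7.09 in SP cells and 8.45, 6.72 and 8.79 in non-SP cells. Its high arrays were thus SP replicate 1 and non-SP replicates 1 and 3, and its groups overlapped widely. The difference of -0.51 had a 95% interval of -2.08 to 1.06, and with the sides of the first principal component as a block it was 0.07 (SE 0.16). IFIT2 read 8.90, 7.76 and 8.27 in SP and 8.49, 8.11 and 9.01 in non-SP cells, and IFIT3 read 8.91, 7.64 and 7.29 in SP and 7.96, 7.03 and 8.13 in non-SP cells. Both had their 3 highest values on those same arrays. With the block IFIT3 differed by 0.65 (SE 0.17, limma adjusted p = 0.262), against 0.24 (SE 0.48) without it. IFIT5 read 7.87, 6.98 and 8.10 in SP and 7.09, 6.70 and 7.05 in non-SP cells at one probe set and differed by 0.70 (SE 0.30) there, and by -0.11 at the other.

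Members varied more within the groups than the typical gene. They were also brighter, with a median level of 7.44 against 6.27 over all genes, and 39 of the 52 lay above the latter. The part of level in this spread was not tested. Of the 52 members, 15 (28.8%) had their 3 highest values on SP replicate 1 and non-SP replicates 1 and 3, as did 13.7% of all genes, and 5 members (9.62%) had them on the other 3 arrays, as did 13.1% of all genes. The 15 were OASL, IFIT1, IFIT2, IFIT3, GBP2, IFITM1, BST2, RSAD2, ISG15, HERC5, IRF1, PARP9, SP110, LGALS3BP and EIF2AK2. The 5 were IFIH1, ISG20, PARP14, TRIM14 and PLSCR1. The arrays were parted by genes outside the list, and these shares describe 6 arrays and carry no test. The median within-group SD was 0.31 over members and 0.21 over all genes, and 9 members (17.3%) lay above the 90th percentile of all genes, an SD of 0.51. Members whose groups were separate were not among them. ISRE letters stood upstream of 7 of the 12 genes of the 15 with a sequence in the table. They stood upstream of 1, SAMD9, of the 5 members with separate groups. Over all members with a sequence it was 23 of 44 (52.3%), and these counts carry no test.

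**Figure D4:**
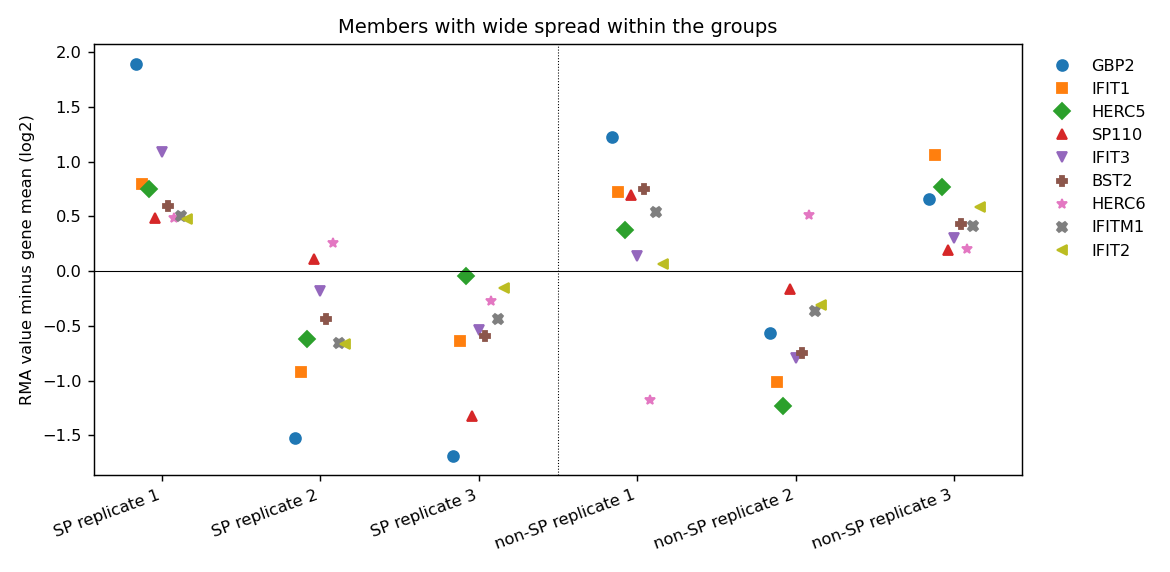
Value on each array minus the gene's mean over 6 arrays (log2, y axis) for the 9 members whose within-group SD lies above the 90th percentile of all genes; each symbol is 1 gene and the dotted line parts SP from non-SP arrays. Apart from HERC6, all lie above 0 on SP replicate 1 and non-SP replicates 1 and 3 and all but SP110 on SP replicate 2 lie below 0 on the other arrays.

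GBP2, a guanylate-binding GTPase that attacks vacuoles holding pathogens, spread most. It read 9.01, 5.59 and 5.43 in SP cells, against 8.34, 6.55 and 7.77 in non-SP cells, a range of 3.58 over the 6 arrays. The difference of -0.87 had an interval of -3.27 to 1.53, with 0.96 and -1.03 within the sides of the first principal component. BST2 (tetherin), which holds budding virions on the cell surface, read 10.02, 8.99 and 8.83 in SP and 10.18, 8.68 and 9.86 in non-SP cells. IFITM1, which blocks virus entry, read 9.89, 8.73 and 8.95 in SP and 9.93, 9.02 and 9.80 in non-SP cells. HERC5, the ligase that attaches ISG15 to other proteins, read 5.57, 4.20 and 4.78 in SP and 5.20, 3.59 and 5.59 in non-SP cells. In each of these genes SP replicate 1 read like non-SP replicates 1 and 3, and not like the other SP arrays.

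The remaining GTPases and membrane factors gave no separate groups at their brightest probe sets. MX1, a dynamin-like GTPase against influenza virus, read 5.63, 5.56 and 5.84 in SP and 5.17, 5.96 and 5.49 in non-SP cells, and its relative MX2 was not above background on any array. GBP1 differed by 0.01 (SE 0.24) at its brightest probe set. A dim GBP1 probe set, 202270_at, read 2.93, 3.49 and 3.58 in SP cells, just above background, and 2.64, 2.79 and 2.47 in non-SP cells, not above background. With the non-SP values set at the background, its mean was 1.33-fold higher in SP cells, an estimate without an interval or test. The values as they stand differed by 0.70 (limma adjusted p = 0.522). Of the other pair of GBP1 probe sets 1 differed by -0.27 and 1 was not above background on any array.

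IFI44, an interferon-induced cytoplasmic protein, was among the larger differences. It read 7.03, 6.74 and 7.44 in SP cells and 5.71, 5.85 and 6.76 in non-SP cells. The groups overlapped only between SP replicate 2 and non-SP replicate 3. The difference at this brighter probe set was 0.96 (SE 0.32), or 1.95-fold with an interval of 1.15 to 3.29 (limma adjusted p = 0.62). The other IFI44 probe set, 214059_at, lay near background and differed by 0.33 (SE 0.29). With the mean of both, IFI44 differed by 0.65. Its neighbour IFI44L was not above background on any array. IFI6, a mitochondrial and ER protein against flaviviruses, differed by 0.24 (SE 0.13), IFI27 by 0.03 (SE 0.13) and IFI35 by 0.01 (SE 0.13), with ranges over 6 arrays of at most 0.48.

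CMPK2, a mitochondrial nucleotide kinase encoded beside RSAD2, was lower in SP cells by value, at 5.76, 6.86 and 6.37 in SP and 7.38, 6.78 and 6.99 in non-SP cells. The difference was -0.72 (SE 0.30, limma adjusted p = 0.733), and SP replicate 2 lay within the non-SP range. Without SP replicate 1 the difference was -0.44. RSAD2 (viperin) makes a chain-terminating nucleotide. At its brighter probe set it read 7.11, 6.74 and 5.91 in SP and 7.11, 6.74 and 7.13 in non-SP cells. There SP replicate 3 alone stood apart, as the lowest. At the other RSAD2 probe set, 242625_at, SP replicate 3 was the highest, at 4.46, and the difference was 0.05 (SE 0.33). ISG20, an RNA exonuclease, differed by 0.36 and 0.34 at its 2 probe sets, with SP replicate 3 the highest at both.

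In the ISG15 system, a ubiquitin-like tag with its ligase and protease, 0 of 4 genes had separate groups, where 11.9% of all genes did. ISG15 itself read 9.27, 8.74 and 8.64 in SP and 9.39, 8.73 and 8.86 in non-SP cells. USP18, which removes ISG15 and blocks the type I receptor, differed by -0.15 (SE 0.23). HERC6 read 8.28, 8.05 and 7.52 in SP cells and 6.62, 8.31 and 8.00 in non-SP cells, with non-SP replicate 1 the lowest.

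The 3 transcription factors measured were above background on all 6 arrays with overlapping groups. IRF1 read 8.87, 8.57 and 8.60 in SP and 9.07, 7.83 and 8.95 in non-SP cells. IRF7, the amplifier of interferon transcription, differed by 0.04 with an interval of -0.38 to 0.47, and IRF9, the DNA-binding part of the type I complex, by -0.07 with an interval of -0.72 to 0.57. The ADP-ribosylation genes PARP9, PARP14 and DTX3L differed by -0.11, 0.04 and 0.23. PARP14 was the tightest, at 8.42, 8.43 and 8.53 in SP and 8.37, 8.47 and 8.42 in non-SP cells, yet its second probe set, 232610_at, read 7.16, 7.74 and 6.66 in SP and 6.68, 6.32 and 6.47 in non-SP cells. That probe set differed by 0.69 (SE 0.28, limma adjusted p = 0.673).

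TRIM21, a cytosolic antibody receptor and ubiquitin ligase, has 1 probe set and was higher in SP cells without overlap. It read 6.88, 6.72 and 6.56 in SP cells, against 6.25, 6.15 and 6.16 in non-SP cells. The difference was 0.53 (SE 0.13), or 1.45-fold with an interval of 1.17 to 1.78, and the limma adjusted p was 0.48. With the sides of the first principal component as a block it was 0.58 (SE 0.12, limma adjusted p = 0.191). TRIM14, an adaptor of mitochondrial antiviral signalling, went by probe set: the brightest differed by 0.18 (SE 0.31), whereas the other 4 differed by -0.21, -0.57, -0.35 and -0.17, with separate groups at 203148_s_at and 210846_x_at. Probe set 203148_s_at read 6.47, 6.20 and 6.06 in SP and 6.82, 6.57 and 7.04 in non-SP cells. TRIM22 was not above background on any array.

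PSMB8, a catalytic subunit of the immunoproteasome, which cuts peptides for class I antigen presentation, was the 1 member lower in SP cells without overlap. It read 6.21, 6.07 and 6.39 in SP cells, against 6.87, 6.58 and 6.78 in non-SP cells. The difference was -0.52 (SE 0.14), or 1.43-fold lower, with a limma adjusted p of 0.554, and it was -0.62 and -0.35 within the sides of the first principal component. PSMB9, the partner subunit encoded nearby on chromosome 6, read 9.06, 9.02 and 8.88 in SP and 8.43, 8.72 and 9.24 in non-SP cells, so that the groups overlapped, with a difference of 0.19 (SE 0.22).

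Of the 6 remaining effectors, SP110, a nuclear body protein, had SP replicate 3 as its low array, with 8.78, 8.40 and 6.97 in SP and 8.99, 8.13 and 8.49 in non-SP cells. SP100 differed by 0.02 (SE 0.22), the scramblase gene PLSCR1 by 0.12 (SE 0.20), LGALS3BP by -0.06 (SE 0.22), and the dim genes XAF1 and EPSTI1 by -0.08 and 0.18. The chemokine genes CXCL10 and CXCL11, which draw T cells and are strongly induced by interferon gamma, stood at background: CXCL10 read 2.71, 2.57 and 2.79 in SP and 2.75, 2.97 and 2.83 in non-SP cells.

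At the level of probe sets, fitted over all 54613, 0 of 99 passed the adjusted threshold, where 0.00183% of all did, and the smallest adjusted p was 0.411. Of the 99, 9 had an unadjusted p under 0.05, against 7.31% of all probe sets: 7 were higher in SP cells (3.79% of all) and 2 lower (3.52% of all). Groups were separate for 8 (8.08%), against 12.5% of all probe sets: 5 were higher in SP cells (5.59% of all) and 3 lower (6.87% of all). Of the 99, 83 were above background on all 6 arrays, 8 on none and 8 on some. Among the 23 genes with more than 1 probe set above background on all 6 arrays, 12 had probe sets of both signs: GBP1, IFIT2, IFIT5, OAS1, OAS2, PARP9, RSAD2, SAMD9, SAMD9L, SP100, SP110 and TRIM14.

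Genes that make, sense or transmit interferon were looked at beside the members, from lists that name no member. Of 18 interferon genes measured, 8 were not above background on any array and none had a mean above 4.17. IFNA1 and IFNA14 had separate groups below the negative controls and are given no direction. Among 9 receptor and signalling genes 1, JAK1, was higher without overlap and 1, TYK2, lower, where 4.78% and 7.1% of all genes were. JAK1, the kinase shared by all 3 interferon receptor types, stood out by value. It read 7.93, 8.18 and 8.00 in SP cells, against 7.17, 6.66 and 6.98 in non-SP cells. The difference was 1.10 (SE 0.16), or 2.15-fold with an interval of 1.64 to 2.82, and it did not pass (limma adjusted p = 0.18, range 0.0848 to 0.628 over 14 alternatives). In contrast to SAMD9, SAMD9L and OAS1, all 5 JAK1 probe sets had separate groups, higher in SP cells by 0.44 to 1.49. Over all probe sets 5.59% were higher without overlap. Probe sets of 1 gene share the same RNA and are no replicates. TYK2, its partner, was lower without overlap by value, at 7.80, 7.63 and 7.79 in SP and 7.90, 7.88 and 7.95 in non-SP cells and differed by -0.17 (SE 0.11), or by -0.11 without SP replicate 2.

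Among 12 sensing adaptors and kinases 2 had separate groups, where 11.9% of all genes did. TLR3, the endosomal receptor for double-stranded RNA, read 6.13, 6.19 and 6.70 in SP and 5.97, 6.04 and 5.77 in non-SP cells and differed by 0.41 (SE 0.18). Without SP replicate 3 the difference was 0.23, and of its 3 probe sets 1 had separate groups. TBK1, the kinase that activates IRF3, read 8.81, 9.13 and 9.25 in SP and 7.98, 8.80 and 8.78 in non-SP cells and differed by 0.54 (SE 0.26). Without non-SP replicate 1, its low array, the difference was 0.27. MYD88 differed by -0.77 (SE 0.32) with overlap. In the 7 inhibitors, 16 class I presentation genes and 25 further interferon-stimulated genes, 0 had separate groups, and their medians were 0.16, 0.11 and 0.01. The smallest unadjusted p-values in them were those of SOCS3 and SOCS1, inhibitors of JAK kinases, at -0.90 (SE 0.65) and 0.25 (SE 0.18), of HLA-B and TAPBP in antigen presentation at 0.53 (SE 0.26) and -0.26 (SE 0.13), and of PARP12 and HELZ2 at 0.43 (SE 0.27) and 0.20 (SE 0.14). In all these lists 0 genes passed the adjusted threshold in limma's fit, and 2 of them, JAK1 and MYD88, had an unadjusted p under 0.05, as did 6.78% of all genes.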

How the data were processed

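Sorted IGROV1 cells gave small amounts of RNA, which was amplified, labelled with biotin and measured on 1 array per sample, per the labels' protocols. The authors deposited RMA values on the log2 scale, made with R 2.8.1 and affy per the submitters' processing notes; settings beyond these are not given there. RMA gives all arrays 1 distribution, so a global change in RNA cannot be seen, and compresses differences near background. With 3 arrays a group, their number limits the precision.

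Of 54675 probe sets, 62 controls were left out; 41091 carried 1 gene symbol in the platform annotation, 1801 several, and 11721 were unnamed here. Symbols were checked through Entrez ID against RefSeq (41037 matched, 0 changed). A gene with several probe sets was read at the brightest on average over the 6 samples. Levels of different probe sets are not compared as amounts of RNA. The difference SP minus non-SP was tested with limma 3.58.1, run in R 4.3.3, by lmFit and eBayes (two-sided, no block), with Benjamini-Hochberg adjustment over all genes, and likewise over all probe sets. SE and 95% intervals are from that fit. It was also run on simulated data with independent noise for each gene and array. Those data lack the parting of the real arrays, so that run does not check the intervals given here. Means, counts and figures came from Python 3.11.15 with pandas 2.3.3 and matplotlib 3.10.9. A test that permutes 3 against 3 arrays cannot go below 0.1, so none was used. Negative controls are the 3 AFFX-TrpnX probe sets.

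The members and lists were chosen with earlier results of these data known. Genes were named by a rule: SAMD9, SAMD9L and OAS1 by probe set, members with groups that do not overlap, up to 2 others per role by unadjusted p, those of highest and lowest mean, those whose probe sets differ in sign, and in other lists those that do not overlap or the 2 of smallest p. Members that vary within groups, and LAMP3, APOL1 and WARS1, were chosen after their values were seen. Other settings tried were the replicate number as a block, averaging a gene's probe sets, dropping genes below the median level, cyclic loess, centring on the median, a robust trended prior, array weights, 1 sample left out, and, added after seeing the data, the sides of the first principal component as a block; since those sides come from the same arrays, its p-values may be too small.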

Additional observations from a re-analysis of the deposited data

How the results depend on the processing

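The count of members past the threshold was 0 under all 14 alternatives run (smallest adjusted p 0.168 to 0.809) and 0 for member probe sets under all 13 (0.173 to 0.659). Over all genes the count was 1, and it was 12 with array weights, 5 with the sides of the first principal component as a block, 3 with the replicate block, 0 with the mean of probe sets, 0 with genes above the median level only, and 1 to 2 with 1 sample left out. Over all probe sets it was 1, and 5 with the sides as a block, 0 with the replicate block, 0 above the median level, and 0 to 2 with 1 sample left out. Members with separate groups numbered 5, and 8 to 14 (15.4% to 26.9%) with 1 sample left out, where fewer arrays have to be apart and 18.1% to 27.2% of all genes qualified. The members' share was below that of all genes in the fit reported (9.62%, all genes 11.9%), and above it with median centring (13.5%, all genes 11.8%), without SP replicate 2 (21.2%, all genes 18.1%), without SP replicate 3 (19.2%, all genes 19.0%) and without non-SP replicate 2 (26.9%, all genes 26.2%). When values only had to be apart within both sides of the first principal component there were 13 members (25.0%; all genes 29.6%), and 15 when only within pairs of 1 replicate number, the replicate block (28.8%; all genes 30.8%). The prior and array weights leave this count as it is and give no value for it. The median difference ranged from -0.02 (without 1 sample) to 0.09, against 0.04. OAS1, PSMB8, SAMD9, SAMD9L, TRIM21, IFI44, CMPK2, JAK1, TLR3, TBK1 and TYK2 kept their direction under each alternative that holds them. Their size was less stable. Leaving out 1 array moved CMPK2, TBK1, TLR3 and TYK2 by over 1.5 times. Averaging a gene's probe sets moved SAMD9 from 1.04 to 0.47, SAMD9L from 0.68 to 0.36 and OAS1 from 0.70 to 0.33. Whether replicate numbers pair the samples was not settled: deviations of same-numbered arrays correlated at 0.45, 0.38 and -0.21 across genes. The arrays numbered 1 lay on the same side of the first principal component, as did those numbered 2, while those numbered 3 were split. These correlations therefore cannot tell pairing from the sides.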

Other observations

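Some genes outside the list parted the arrays in the same way within the groups, in either direction. The sides were set by genes outside the list, these included, so their parting is no separate evidence of it. LAMP3, a lysosomal membrane gene that interferon and the unfolded protein response both induce, read 2.60, 7.29 and 7.74 in SP cells and 2.56, 7.82 and 2.25 in non-SP cells. It was thus not above background on SP replicate 1 and non-SP replicates 1 and 3, where IFIT1, GBP2 and BST2 were highest. APOL1, an innate defence gene of the same kind, went the other way, with 10.76, 9.54 and 9.35 in SP and 10.68, 9.31 and 10.67 in non-SP cells. SOCS3, an inhibitor of JAK kinases, read 7.63, 6.33 and 5.62 in SP and 8.47, 6.46 and 7.34 in non-SP cells. WARS1, a tryptophanyl-tRNA synthetase induced by interferon gamma and by amino acid stress, read 10.67, 11.39 and 11.45 in SP and 10.53, 11.49 and 10.65 in non-SP cells, in the direction of LAMP3. The cause was not tested.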
